A study of Mus musculus with 21 samples.

Results

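The genes described here are 9 targets of the tumor suppressor p53 and inhibitors of the cell cycle that are linked to senescence: *Cdkn1a*, *Cdkn1c*, *Cdkn2a*, *Cdkn2b*, *Mdm2*, *Ccng1*, *Phlda3*, *Gdf15* and *Trp53inp1*. They were chosen by name and looked up by mouse symbol, and all 9 were found among the 26852 Ensembl genes of the expression table. RNA-seq had been performed on FACS-sorted Nes low mesenchymal cells from the bone marrow of Nestin-GFP NSG mice, an immunodeficient strain in which green fluorescent protein follows the Nestin promoter. Leukemic mice were unconditioned and 8 to 12 weeks old when they received the human AML cell line HL60 or ML1, both engineered to secrete sLP-mCherry, a red fluorescent protein that enters cells near the tumor cells. The design asks how niche cells differ with the stage of leukemia and, at the early stage, with the uptake of the label.

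Of the 21 libraries, 3 came from mice without engraftment (ctrl). At the early stage, 6 libraries held cells that had taken up the label (ch+) and 6 held cells from leukemic marrow without it (ch-). The late stage gave 6 libraries. Every group of 6 was made of 3 HL60 and 3 ML1 libraries, and both lines are compared with the same ctrl libraries. The treatment label of the 3 late ML1 libraries describes mice without engraftment, whereas their titles and time point say late. Several of the results that rest on them are therefore also given without them. The labels do not say whether the replicates are separate animals, so the p-values measure only the spread between these libraries. By the study's description ch+ and ch- cells came from the same marrow. The labels do not say which libraries belong together, so the fits treat them as independent. Values are regularized log2 expression, a log scale on which weakly expressed genes are pulled toward their mean. The depth of each library is unknown from these values.

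p53 is a transcription factor that is kept low by the ubiquitin ligase Mdm2, itself a p53 target, and that accumulates after DNA damage and other stress. Its targets stop the cell cycle, promote repair or cell death and feed back on p53, and the CDK inhibitors p21, p57, p16 and p15 hold cells in arrest. In marrow stroma, p21 and p16 are widely used as markers of senescence, while p57 is known from quiescent cells.

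Genes of the labelled mesenchymal cell type were expressed in all 21 libraries, as were markers of other cell types. *Nes* lay between 6.61 and 7.87 in the 21 libraries, *Cxcl12* between 14.89 and 16.44 and *Lepr* between 12.24 and 14.81. *Pecam1*, an endothelial marker, lay between 4.53 and 6.21. The endothelial markers, led by *Cdh5*, summed to 8.96 to 9.14 in HL60 ch+ and 8.07 to 8.67 in HL60 late libraries, without overlap, with 0 of 6 called between them. The HL60 ch+ sums also lay above those of ctrl (8.06 to 8.50), HL60 ch- (7.57 to 8.74) and ML1 ch+ libraries (7.97 to 8.62). *Ptprc*, the pan-leukocyte gene, had a median of 2.44 in late and 2.58 in ctrl libraries, compared with 4.88 in ch+ and 4.18 in ch- libraries. Markers of other cell types moved with the groups, although blood cells were depleted with magnetic beads and stained for before sorting. The 9 blood cell markers, led by *S100a9*, had summed levels of 6.34 to 8.84 in ctrl and 5.93 to 6.53 in late libraries. Their sums were higher at the early stage, at 9.77 to 11.17 (ch+) and 10.16 to 11.27 (ch-). Of the 7 tested blood cell markers, 7 were higher in ch+ and 6 in ch- than in ctrl, and 7 were lower in late than in ch+. The 7 osteoblast markers, led by *Col1a1*, summed to 20.19 to 20.65 in ctrl and 15.96 to 18.87 in late libraries, and 6 of 7 were lower in late than in ctrl. The 7 red cell markers, led by *Hbb-bs*, summed to 8.21 to 9.30 in ctrl and 6.42 to 6.88 in late libraries, and to 11.98 to 13.53 in ch+ and 12.20 to 13.22 in ch- libraries.

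Of 7 chondrocyte markers, led by *Col2a1*, 7 were lower in ch+ than in ch- and 7 lower in late than in ctrl. Their sums were 16.01 to 17.14 in ctrl and 11.34 to 13.79 in late libraries. The 6 smooth muscle markers, led by *Myh11*, summed to 10.65 to 11.63 in ch+ and 12.47 to 13.52 in ch- libraries, and to 13.09 to 14.39 in ctrl and 11.34 to 12.54 in late libraries. The skeletal muscle markers, led by *Acta1*, had sums of 5.69 to 6.94 in ctrl, from 5.10 to 5.21 in late and from 6.40 to 9.25 in early libraries. The 9 mesenchymal markers themselves, led by *Cxcl12*, summed to 16.77 to 17.06 in late and 15.50 to 16.12 in ctrl libraries, without overlap. In ctrl libraries the osteoblast sums, 20.19 to 20.65, lay above the mesenchymal ones. Without the late ML1 libraries, late against ctrl sets the same libraries against each other as the HL60 comparison, in another fit whose calls can differ. In the HL60 comparison, 5 of 7 osteoblast and 7 of 7 chondrocyte markers were lower. The part of these markers in the results below was not tested. In bulk samples, fewer cells of a type and less RNA per cell cannot be told apart.

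All members but *Cdkn2a* reached the mean of 3.32 that is the log2 of 10 normalized counts, so 8 members were tested among 12976 genes. Genes with an adjusted p under 0.1 in limma are called higher or lower. With the lines pooled, 2 of the 8 members (*Cdkn1c* and *Gdf15*) were higher in late than in ctrl, where 21.5% of all tested genes were called. Between late and ch+ cells, 2 members (*Cdkn1c* and *Phlda3*) were higher in late, beside 19.7% of all tested genes. Between ch+ and ch- cells, 1 member (*Cdkn1c*) was lower in ch+, beside 6.26% of all tested genes. With limma, 0 members were called in ch+ against ctrl, where 6.17% of all tested genes were, and 0 members had an unadjusted p under 0.05, as had 16.8% of all tested genes. In ch- against ctrl, 0 members were called, beside 1.92% of all tested genes, and 1 member (*Cdkn1c*) had an unadjusted p under 0.05, as had 11.9% of all tested genes.

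Within HL60, 1 member (*Cdkn1c*) was higher in late than in ch+ cells, where 10.2% of all tested genes were called. In the other HL60 comparisons limma called 0 members. The background was 13.7% for late against ctrl, 5.33% for ch+ against ctrl, 1.57% for ch- against ctrl and 3.92% for ch+ against ch-. The members with an unadjusted p under 0.05 numbered 1, 0, 2 and 1 in these comparisons, where 21.3%, 15.6%, 10.7% and 12.5% of all tested genes had one. Within ML1, 1 member (*Gdf15*) was higher in late than in ctrl, beside 22.0% of all tested genes, and 1 member (*Gdf15*) was higher in late than in ch+ cells, beside 16.9%. The other ML1 comparisons had 0 called members. Their background was 6.69% for ch+ against ctrl, 2.34% for ch- against ctrl and 4.25% for ch+ against ch-, and 0, 1 and 0 members had an unadjusted p under 0.05, beside 16.3%, 12.7% and 13.8% of all tested genes. Compared directly in limma, HL60 and ML1 differed in 0 members at each stage. The background was 4.09% in late, 0.0154% in ch+ and 0.0539% in ch- cells, and 1, 0 and 1 members had an unadjusted p under 0.05, beside 10.9%, 7.61% and 6.82% of all tested genes. No test of these counts against the background was run. The median log2 fold change of the 8 members was 0.35 in pooled late against ctrl, beside 0.02 over all tested genes, and -0.21 in ch+ against ch-, beside -0.02.

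**Figure D1:**
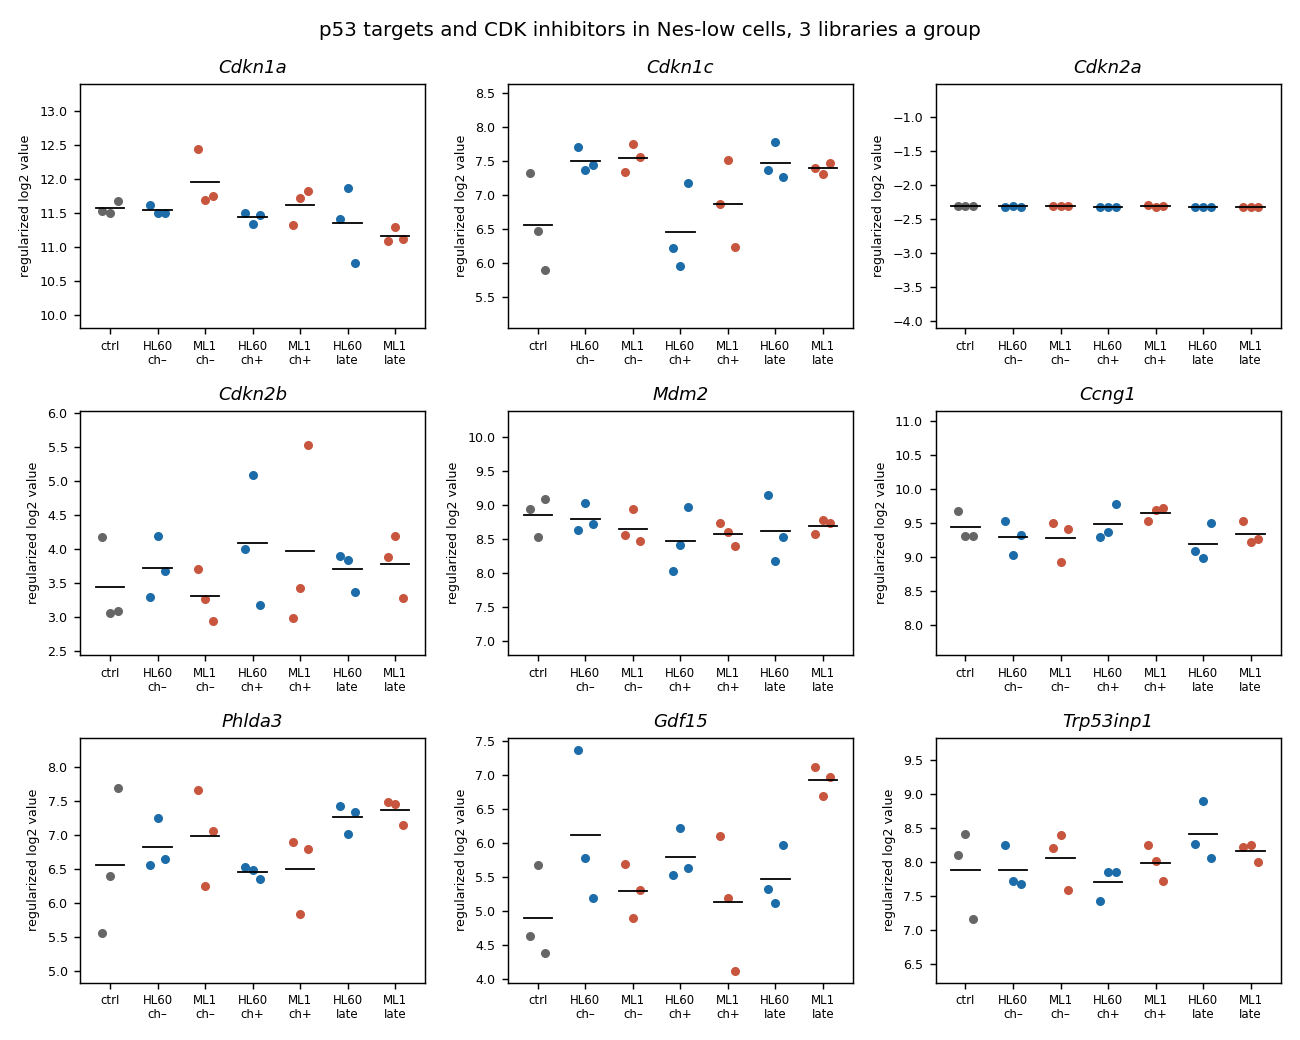
Regularized log2 value of each member (vertical axis, the same span of 3.6 in every panel) in each library (points, HL60 blue, ML1 red, ctrl gray) with group means (black lines). *Cdkn2a* is flat near -2.31, *Gdf15* is highest in the ML1 late group mean, and *Cdkn1c* is lower in several ctrl and ch+ libraries.

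*Cdkn1a* (ENSMUSG00000023067; GRCm38 chr17:29090976-29100727) encodes p21, the inhibitor through which p53 halts cells in G1. Its values were 11.53, 11.51 and 11.68 in ctrl. In late libraries they were 11.42, 11.87 and 10.77 with HL60 and 11.09, 11.30 and 11.13 with ML1. The late HL60 libraries lay on both sides of ctrl, while the late ML1 libraries all lay below it. The log2 fold change of late against ctrl was -0.31 (95% CI -0.70 to 0.07; limma adjusted p = 0.304), and it was -0.40 in ML1 (adjusted p = 0.179). In ML1, late against ch+ gave -0.45 (SE 0.20, adjusted p = 0.14), which was not called although the groups did not overlap. In early cells, ch+ values ran from 11.33 through a median of 11.49 to 11.83, and ch- values from 11.51 through 11.67 to 12.45. The early groups overlap, and the highest ch- value belongs to ML1 replicate 543 alone. HL60 and ML1 ch- cells differed by -0.41 (SE 0.20, adjusted p = 0.71), or -0.17 without that library (adjusted p = 0.929). With each library rescaled to the mean library total, which moved the median of all tested genes in late against ctrl from 0.02 to 0.71, *Cdkn1a* turned to 0.38, below that median, and ML1 late against ch+ turned from -0.45 to 0.31. Without late HL60 replicate 398, late against ctrl was -0.43 and called (adjusted p = 0.0946). The ML1 value was called in a fit of only the groups compared (adjusted p = 0.0572, in a range of 0.0572 to 0.3 over the alternatives) and without any of 4 single libraries. These were ML1 ch+ replicate 538 (-0.60, adjusted p = 0.066), ML1 ch- replicate 543 (adjusted p = 0.0919) and late HL60 replicates 398 and 399 (adjusted p = 0.086 and 0.0714), the last 3 with an unchanged -0.45. Over all 21 libraries the SD of *Cdkn1a* was 0.34, below the median SD of 0.48 of the tested genes.

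*Cdkn1c* (ENSMUSG00000037664; chr7:143458339-143461050) encodes p57, a CDK inhibitor expressed from the maternal copy of an imprinted locus. Its ctrl values were 7.32, 6.46 and 5.90. The late values ran from 7.26 through a median of 7.39 to 7.77, and the ch- values from 7.33 through 7.50 to 7.74. The ch+ values were 6.22, 5.95 and 7.18 in HL60 and 6.87, 7.51 and 6.23 in ML1. Late and ch- libraries were tightly grouped and high. Ctrl and ch+ libraries were spread, and the highest of each reached the level of the late libraries. Group means (± SD) descended from 7.52 ± 0.17 in ch- (n = 6) and 7.43 ± 0.18 in late (n = 6) to 6.66 ± 0.62 in ch+ (n = 6) and 6.56 ± 0.72 in ctrl (n = 3). The first pair of groups and the last pair each differ by less than their SD.

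The log2 fold change of *Cdkn1c* was 0.87 in late against ctrl (SE 0.30, limma adjusted p = 0.0483), -0.86 in ch+ against ch- (SE 0.25, adjusted p = 0.0375) and 0.76 in late against ch+ (SE 0.25, adjusted p = 0.0318). In ch- against ctrl it was 0.96 (SE 0.30, adjusted p = 0.139), not called although every ch- library lay above every ctrl library. That value was 1.34 and called without ctrl replicate 373 (adjusted p = 0.0353), called without ML1 ch+ replicate 539 (0.96, adjusted p = 0.0975) and 0.63 without ctrl replicate 375 (adjusted p = 0.505). By line, late against ch+ was 1.01 in HL60 (SE 0.36, adjusted p = 0.0848) and 0.52 in ML1 (SE 0.36, adjusted p = 0.429). Several *Cdkn1c* calls rested on single libraries. Late against ctrl lost its call without ctrl replicate 374 (0.82, adjusted p = 0.142) or 375 (0.54, adjusted p = 0.345), in a range of adjusted p from 0.00858 to 0.345 over libraries left out. Without HL60 ch+ replicate 524, ch+ against ch- was not called (-0.72, adjusted p = 0.115, in a range of 0.00887 to 0.115), nor was it under the rescaling to the mean library total (-0.71, adjusted p = 0.126, in a range of 0.0329 to 0.126 over the alternatives). Without the late ML1 libraries, neither late against ctrl (0.90, adjusted p = 0.149) nor late against ch+ (0.80, adjusted p = 0.143) was called. Over the alternatives the adjusted p ran from 0.000342 to 0.149 and from 0.000115 to 0.143.

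The HL60 call of *Cdkn1c* in late against ch+ was lost without any of 7 single libraries. Without late HL60 replicates 397, 398 and 399 in turn, the log2 fold change was 1.06, 0.86 and 1.12 (limma adjusted p = 0.154, 0.299 and 0.125). Without HL60 ch+ replicates 523 and 524 it was 0.90 and 0.76 (adjusted p = 0.237 and 0.335). Without late ML1 replicates 581 and 583, which change only the spread, it stayed at 1.01 (adjusted p = 0.1 and 0.101). It was also not called without the filter (adjusted p = 0.2), without the trend (adjusted p = 0.12) or without the late ML1 libraries (adjusted p = 0.119), in a range of 0.0064 to 0.2 over the alternatives.

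Immediate early genes moved in the same direction as *Cdkn1c* in early cells. Of 12 tested, 7 were lower in ch+ than in ch- cells and 0 higher, where 6.26% of all tested genes were called. The list's median log2 fold change was -0.50 beside -0.02 over all tested genes. The count of called genes ran from 2 to 9 over the alternatives and from 5 to 8 with single libraries left out. The largest were *Ier2* (-0.82, SE 0.19), *Nr4a1* (-0.69, SE 0.16), *Jun* (-0.53, SE 0.16) and *Egr1* (-0.51, SE 0.13). *Jun* was not called under 6 of 12 alternatives (limma adjusted p = 0.0563, up to 0.288) or without HL60 ch- replicate 528 (-0.52, adjusted p = 0.106), ML1 ch+ replicate 539 (-0.49, adjusted p = 0.123) or 541 (-0.49, adjusted p = 0.125), or ML1 ch- replicate 544 (-0.51, adjusted p = 0.108). *Egr1* was not called under quantile normalization (-0.26, adjusted p = 0.428) or the rescaling (-0.36, adjusted p = 0.213). Summed, the list ran from 15.62 to 15.77 in ch+ and from 16.04 to 16.27 in ch- libraries. In ctrl it ran from 15.62 to 15.80. In late libraries the sums were 15.59 to 15.80 in HL60 and 16.26 to 16.46 in ML1, and the *Cdkn1c* means were 7.46 and 7.39. The part of these genes in the *Cdkn1c* difference was not tested. The genes most like *Cdkn1c* over the 21 libraries were *Crem* (Pearson's r = 0.803), *Rps13-ps1* (0.785), a pseudogene whose reads may be shared with *Rps13*, and *Cebpd* (0.774), a description in which libraries of a group are not independent.

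*Cdkn2a* (ENSMUSG00000044303; chr4:89274471-89294653) encodes p16 and p19Arf, both used as markers of senescence. It lay between -2.319 and -2.305 in all 21 libraries, near the lowest value of -2.33 in the table, and it was not tested. The mean was -2.312 in ctrl and -2.318 in late libraries. With the depth of each library unknown, no detection limit can be given, and the regularization would also hide a small change.

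*Cdkn2b* (ENSMUSG00000073802; chr4:89306299-89311039) encodes p15, which inhibits CDK4 and CDK6. It was weakly expressed, with a mean of 3.71, near the filter. Its values ran from 2.94 to 5.52, and the highest were 5.52 in ML1 ch+ replicate 541 and 5.08 in HL60 ch+ replicate 524. The other ch+ libraries lay between 2.98 and 3.99, inside the span of the other groups. Late against ctrl was 0.30 (95% CI -0.60 to 1.2; limma adjusted p = 0.727), and the interval holds changes of more than 1 in size upward. With ctrl replicates 373, 374 and 375 left out in turn it was 0.67, 0.11 and 0.12, and under the rescaling 0.99 (adjusted p = 0.0574).

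*Mdm2* (ENSMUSG00000020184; chr10:117688875-117710758) encodes the ligase that marks p53 for degradation. Its values lay between 8.03 and 9.15 in all libraries, and each group overlaps every other. Late against ctrl was -0.20 (95% CI -0.62 to 0.22; limma adjusted p = 0.595) and ch+ against ctrl -0.33 (95% CI -0.75 to 0.09; adjusted p = 0.449). *Ccng1* (ENSMUSG00000020326; chr11:40748552-40755311) encodes cyclin G1, a p53 target that recruits a phosphatase to Mdm2. It lay between 8.93 and 9.78, the narrowest span of any tested member. Late against ctrl was -0.18 (95% CI -0.52 to 0.17; adjusted p = 0.561), and late against ch+ was -0.30 (SE 0.14, adjusted p = 0.16). Under the rescaling, late against ctrl turned to 0.49 for *Mdm2* and 0.52 for *Ccng1*, and late against ch+ to 0.32 for *Ccng1*, all below the shifted medians of all tested genes, 0.71 and 0.63. Single ctrl libraries moved late against ctrl as well: *Mdm2* was -0.36 without replicate 374 and -0.08 without 375, and *Ccng1* was -0.06 without 373. *Mdm2* was -0.10 without late HL60 replicate 398.

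*Phlda3* (ENSMUSG00000041801; chr1:135766119-135769136) encodes a p53-induced inhibitor of Akt signaling. Its ctrl values were 5.56, 6.40 and 7.69. The late values were 7.42, 7.01 and 7.34 in HL60 and 7.49, 7.45 and 7.15 in ML1, and the ch+ values 6.52, 6.48 and 6.35 in HL60 and 6.89, 5.83 and 6.79 in ML1. Every late library lay above every ch+ library, whereas ctrl spans both groups. The ch- values, 6.56, 7.25 and 6.65 in HL60 and 7.66, 6.24 and 7.05 in ML1, overlap both as well. Late exceeded ch+ by 0.83 (SE 0.28, limma adjusted p = 0.0411), with 0.81 in HL60 (adjusted p = 0.304) and 0.86 in ML1 (adjusted p = 0.2), the latter 0.52 without ML1 ch+ replicate 539. Without the same library the pooled difference was 0.70 and no longer called (adjusted p = 0.106, in a range of 0.0157 to 0.106), and without the late ML1 libraries it was 0.78 (adjusted p = 0.233, in a range of 8.92e-05 to 0.233 over the alternatives). Without the filter the adjusted p was 0.101. Late against ctrl was 0.76 (95% CI 0.05 to 1.46; adjusted p = 0.144). It was 0.26 (adjusted p = 0.712) without ctrl replicate 373, the ctrl library with the lowest *Phlda3*, and 1.33 (adjusted p = 0.00835) without replicate 375, the one with the highest. Sample weights gave 0.86 (adjusted p = 0.0746, in a range of 0.000885 to 0.384 over the alternatives). Replicate 375 also had the highest summed blood cell markers of the ctrl libraries, 8.84 against 6.39 and 6.34, whose part in the value was not tested.

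*Trp53inp1* (ENSMUSG00000028211; chr4:11156431-11174379) encodes a stress protein that acts with p53 in cell death and autophagy. Its ctrl values were 8.11, 8.41 and 7.16, and the late values ran from 8.00 through a median of 8.24 to 8.90. The late libraries overlap ctrl. Late against ctrl was 0.39 (95% CI -0.12 to 0.91; limma adjusted p = 0.336) and late against ch+ 0.43 (SE 0.21, adjusted p = 0.18). Without ctrl replicate 375, late against ctrl was 0.03 (adjusted p = 0.971), and it was 0.65 (adjusted p = 0.138) without replicate 374. In HL60 late against ch+ was 0.70 (SE 0.29, adjusted p = 0.169), not called although the groups did not overlap, and 0.46 without late replicate 398 (adjusted p = 0.57). Under the rescaling these 3 values were 1.09, 1.05 and 1.17, all called.

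*Gdf15* (ENSMUSG00000038508; chr8:70629393-70632456) encodes a secreted stress cytokine of the TGF-β family that p53 and other stress factors induce. Its ctrl values were 4.63, 5.68 and 4.39. In late libraries it was 7.13, 6.69 and 6.98 with ML1 and 5.33, 5.12 and 5.98 with HL60. The late ML1 libraries all lay above every ctrl and late HL60 library, while the late HL60 libraries overlap ctrl. In early cells the values were 5.54, 6.23 and 5.63 in HL60 ch+, 6.11, 5.19 and 4.12 in ML1 ch+, 7.38, 5.78 and 5.20 in HL60 ch- and 5.70, 4.90 and 5.31 in ML1 ch-. The early groups overlap one another, and a single library, HL60 ch- replicate 527, exceeded the late ML1 level.

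In ML1, late *Gdf15* exceeded ctrl by 2.03 (SE 0.50, limma adjusted p = 0.00374) and ch+ by 1.79 (SE 0.50, adjusted p = 0.0138). The first call was kept under each of the 10 alternatives that apply and each library left out, with adjusted p from 5.27e-05 to 0.0275. Both calls rest on the 3 late ML1 libraries, whose treatment label describes mice without engraftment, so neither can be given without them. The second was lost without ML1 ch+ replicate 541 (1.28, adjusted p = 0.135). In HL60, late against ctrl was 0.58 (SE 0.50, adjusted p = 0.578) and late against ch+ -0.32 (SE 0.50, adjusted p = 0.829). The difference between the lines in late cells, HL60 minus ML1, was -1.46 (SE 0.50) and was not called (adjusted p = 0.15, in a range of 0.00965 to 0.371 over the alternatives). It was called under the rescaling (-1.70, adjusted p = 0.0595), with sample weights (-1.44, adjusted p = 0.0208), in a fit of only the groups compared (adjusted p = 0.00965) and without HL60 ch- replicate 527 (adjusted p = 0.0915). The pooled value of late against ctrl was 1.31 (SE 0.51, adjusted p = 0.0816). It was not called without the filter (adjusted p = 0.195), without the trend (adjusted p = 0.105) or at a threshold of 0.05, in a range of 0.0033 to 0.641 over the alternatives. Nor was it called without the late ML1 libraries (0.58, adjusted p = 0.641), without ctrl replicate 373 (1.17, adjusted p = 0.22) or 375 (1.05, adjusted p = 0.29), or without late ML1 replicate 581 (1.12, adjusted p = 0.167), 582 (1.21, adjusted p = 0.142) or 583 (1.15, adjusted p = 0.158).

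Genes of other lists were called between the late lines, where *Gdf15* was not called and 4.09% of all tested genes were. Of 7 osteoblast markers, 6 were higher in late HL60 than in late ML1 cells, and their summed level was 18.52 to 18.87 in HL60 and 15.96 to 16.76 in ML1. Of 7 chondrocyte markers, 3 were higher and 0 lower in late HL60, with sums of 13.17 to 13.79 in HL60 and 11.34 to 11.99 in ML1. Of 12 immediate early genes, 7 were lower in HL60. The 7 tested ATF4 and CHOP stress genes, a pathway that also induces *Gdf15*, had 1 gene higher in late HL60 (*Vldlr*) and 0 lower. In pooled late against ctrl, *Ddit4* was higher (0.81, SE 0.32, limma adjusted p = 0.0921) and *Vldlr* lower (-1.74, SE 0.29), beside 21.5% of all tested genes called. This count of 2 ran from 1 to 5 over the alternatives. The pooled *Ddit4* call was kept under 7 of 12 alternatives (limma adjusted p up to 0.214). It was lost with 6 of 21 libraries left out in turn (adjusted p up to 0.242), and its value ran from 0.59 to 0.93. In ML1, *Ddit4* was higher in late than in ch+ cells (1.2, SE 0.32, adjusted p = 0.00692) and *Vldlr* lower in late than in ctrl (-2.45, SE 0.21). In HL60, *Ddit4* was higher (0.92, SE 0.32, limma adjusted p = 0.061) and *Vldlr* lower (-1.04, SE 0.21) in late than in ctrl. Summed, the stress gene list, led by *Atf4*, ran from 10.73 to 11.15 in late and from 11.33 to 11.67 in ctrl libraries. The part of these lists in the *Gdf15* values was not tested, and cell line and any unlabelled batch cannot be told apart. The genes most like *Gdf15* over the 21 libraries were *Tubgcp3* (Pearson's r = 0.790), *Slc35d3* (0.766) and *Ppara* (0.760).

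**Figure D2:**
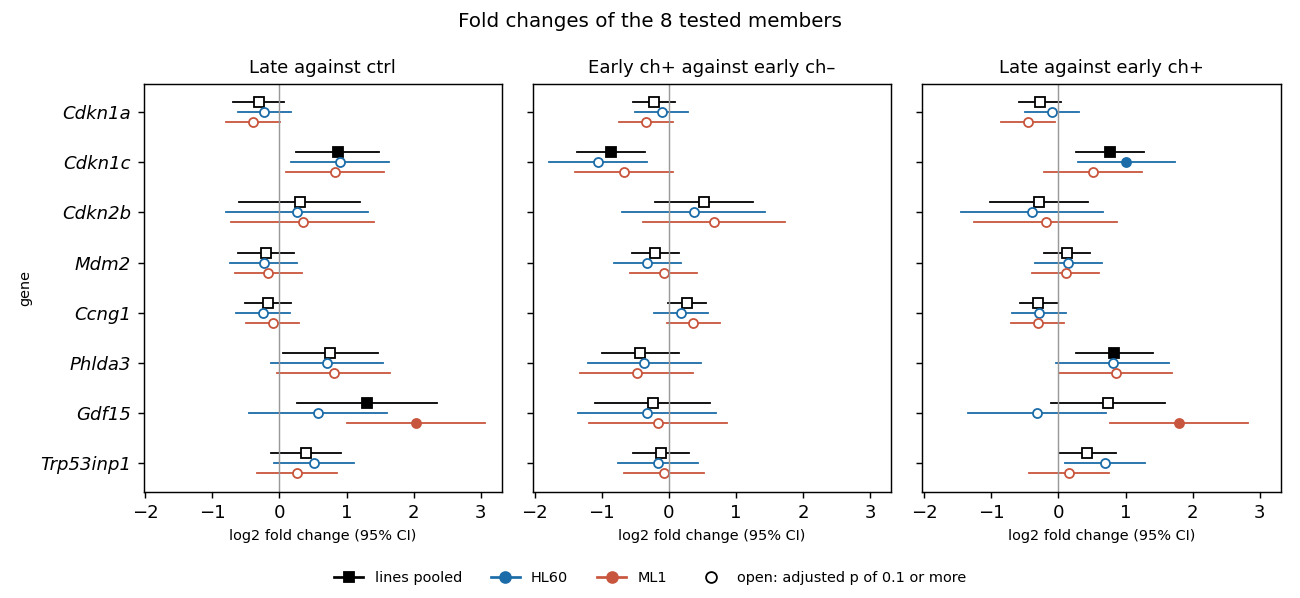
Log2 fold changes (horizontal axis, with 95% confidence intervals from limma) of the 8 tested members in 3 comparisons, lines pooled (black squares), HL60 (blue) and ML1 (red), filled where the adjusted p is under 0.1. *Gdf15* in ML1 has the highest value of late against ctrl, 2.03, and the intervals of *Mdm2* include 0 in each panel.

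Over 28 pairs of tested members, Pearson's r across the 21 libraries had a median of -0.05, and it ran from -0.46 between *Cdkn1a* and *Gdf15* to 0.55 between *Cdkn1c* and *Trp53inp1*. *Cdkn1a* and *Mdm2* had an r of -0.11. The genes most like *Cdkn1a* were *Bmp1* (0.796), *Grrp1* (0.771) and *Fam160b1* (0.755). Those most like *Phlda3* were *Dok4* (0.775), *2810408A11Rik* (0.774) and *Uhrf2* (0.740). For *Trp53inp1* they were *Ak3* (0.780), *G0s2* (0.754) and *Ephx2* (0.737).

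Promoter windows of 300 bases, from 250 before to 50 after the start site, were taken from a table of RefSeq promoters (GRCm38.p6). It was matched by symbol for 7 members, all but *Cdkn1c* and *Trp53inp1*, and *Cdkn1a*, *Cdkn2a* and *Gdf15* had more than 1 window. The p53 decamer, the unit that occurs as a pair in a full p53 response element, was searched by its consensus, which is its own reverse complement, so both strands are covered. It occurred in 3 of 10 member windows, beside 8.36% of 32851 windows of all genes. The matches are shown because they fall in *Cdkn1a*, *Mdm2* and *Ccng1*, p53 targets that were called in no comparison. Capitals mark the decamer and lower case the neighboring bases, 5′ to 3′ on the strand of the gene.
*Cdkn1a*, position -73, chr17:29090906-29090915, plus strand: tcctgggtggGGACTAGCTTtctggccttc
*Cdkn1a*, position -51, chr17:29090928-29090937, plus strand: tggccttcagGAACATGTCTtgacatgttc
*Mdm2*, position -186, chr10:117710935-117710944, minus strand: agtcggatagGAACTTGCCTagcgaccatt
*Ccng1*, position -185, chr11:40755462-40755471, minus strand: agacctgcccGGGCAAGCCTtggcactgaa
The positions give the first base of the decamer relative to the start site of its window. Both *Cdkn1a* decamers lie in the window chr17:29090729-29091028, and the other *Cdkn1a* window, chr17:29093519-29093818, held 0. A match describes letters in the window and is no evidence of binding.

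The transcript of p53, *Trp53*, lay between 8.36 and 9.74 in all libraries. Late against ctrl was 0.13 (95% CI -0.29 to 0.55; limma adjusted p = 0.755), and 0.82 (adjusted p = 0.00408) under the rescaling. It was 0.23 without ctrl replicate 373, 0.05 without ctrl replicate 375 and 0.08 without late ML1 replicate 583. Of 22 tested genes among 26 other p53 targets, 3 were higher and 1 lower in late than in ctrl, with a median log2 fold change of 0.15 beside 0.02 over all tested genes. Of all tested genes, 21.5% were called in this comparison, so that 4 of 22 was no larger a share. *Polk*, a DNA polymerase that bypasses lesions, was higher (1.81, SE 0.31), as were the death receptor gene *Fas* (1.15, SE 0.41) and *Gadd45a* (0.65, SE 0.25), while the kinase gene *Plk2* was lower (-1.82, SE 0.29). The count of 4 ran from 2 to 13 over the alternatives. *Fas* was not called without the filter (adjusted p = 0.118) or without ctrl replicate 373 (0.96, adjusted p = 0.209), ctrl replicate 375 (0.87, adjusted p = 0.268) or late HL60 replicate 399 (1.02, adjusted p = 0.11). *Gadd45a* was not called without the filter (adjusted p = 0.119), without the late ML1 libraries (0.60, adjusted p = 0.285) or without any of 5 single libraries. These were ctrl replicates 373 (0.43, adjusted p = 0.361) and 375 (0.68, adjusted p = 0.141), late ML1 replicates 581 (0.61, adjusted p = 0.134) and 583 (0.61, adjusted p = 0.135) and late HL60 replicate 397 (0.63, adjusted p = 0.112). At a threshold of 0.05 neither was called. By line, 2 of the 22 genes were higher and 1 lower in HL60 late against ctrl, beside 13.7% of all tested genes. In the same ML1 comparison, 1 was higher and 3 were lower, with *Fas* and *Gadd45a* not among them, beside 22.0% of all tested genes.

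In ch+ against ch- cells, *Gadd45a* (1.00, SE 0.20) and *Zmat3* (0.73, SE 0.20) were higher and *Btg2* was lower (-0.89, SE 0.24), beside 6.26% of all tested genes called. The list's median was 0.16 beside -0.02. *Btg2* was not called without the filter (limma adjusted p = 0.136) or under the rescaling (-0.74, adjusted p = 0.101). *Zmat3* was not called without the filter (adjusted p = 0.101) or without ML1 ch+ replicate 541 (0.58, adjusted p = 0.101). By line, the same genes were called in ML1, *Gadd45a* at 1.12 (SE 0.30), *Zmat3* at 1.02 (SE 0.28) and *Btg2* at -1.01 (SE 0.27), beside 4.25% of all tested genes. In HL60 no gene of the list was called, beside 3.92% of all tested genes. Of 9 tested p53 regulators, 1 was lower in late than in ctrl, the kinase gene *Hipk2* (-1.56, SE 0.16), beside 21.5% of all tested genes called. The count of 1 ran from 1 to 8 over the alternatives, with 11 of 12 at 1, and was 2 with 2 of 21 libraries left out in turn. The 6 late values of *Hipk2* ran from 9.55 to 10.00 and its 3 ctrl values from 10.99 to 11.68, without overlap.

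Of 10 tested proliferation genes, 3 were lower in late than in ctrl: *Ccna2* (-1.90, SE 0.37), *Top2a* (-1.82, SE 0.43) and *Mki67* (-1.10, SE 0.25), the last not called under the rescaling (-0.41, adjusted p = 0.189). The list's median was -0.55 beside 0.02, and 21.5% of all tested genes were called in this comparison. In ch+ against ctrl, *Mki67* was higher (0.99, SE 0.25), where 6.17% of all tested genes were called. Of 10 tested genes of the RB pathway, on which the CDK inhibitors act, 0 were called in late against ctrl, beside 21.5% of all tested genes. The list's median was -0.12. The count of 0 ran from 0 to 6 over the alternatives, with 7 of 12 at 0, and was 1 with 6 of 21 libraries left out in turn. In ML1, *Rb1* was lower in late than in ctrl (-0.58, SE 0.24, adjusted p = 0.0987). Late and ch+ cells differed in *Ccnd2* (-0.71, SE 0.14) and *Rb1* (-0.60, SE 0.18), beside 19.7% of all tested genes called. Under the rescaling neither was called (*Ccnd2* -0.09, adjusted p = 0.589; *Rb1* 0.016, adjusted p = 0.937), and without the late ML1 libraries *Rb1* was not (-0.52, adjusted p = 0.178). In ch+ against ch- cells, *Ccnd2* (0.82, SE 0.14, limma adjusted p = 0.000125) and *Cdk6* (0.70, SE 0.18, adjusted p = 0.0197) were higher, beside 6.26% of all tested genes called. This count of 2 was the same under all 12 alternatives and with each of the 21 libraries left out. Of the 3 other CDK inhibitors, 0 were called in the pooled comparisons and in HL60, beside the shares of all tested genes given above. Over the alternatives up to 1 was called in pooled late against ctrl (9 of 12 at 0) and up to 2 in late against ch+ (11 of 12 at 0). With single libraries left out, 1 was called in late against ctrl in 1 of 21 fits and in ch+ against ctrl in 2. In ML1, *Cdkn2c* was lower in late than in ctrl (-1.16, SE 0.43, adjusted p = 0.0643) and *Cdkn2d* lower in ch+ than in ctrl (-1.34, SE 0.44, adjusted p = 0.0852).

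Of 9 tested factors that senescent cells are known to secrete, 6 were higher in late than in ctrl and 0 lower, with a median of 1.34 beside 0.02. Of all tested genes, 21.5% were called in this comparison. The largest changes among the 9 were *Ccl2* (2.69, SE 0.54), *Igfbp3* (2.5, SE 0.37), *Il6* (1.93, SE 0.46) and *Cxcl1* (1.70, SE 0.39). Without the late ML1 libraries, 3 were higher and 1 lower. *Ccl2* was then 1.40 (adjusted p = 0.0271) and *Igfbp3* 2.85, while *Il6* (1.2, adjusted p = 0.119) and *Cxcl1* (1.00, adjusted p = 0.114) were not called. Summed, the list, led by *Mmp13*, ran from 14.29 to 15.05 in late libraries. The sums of the other groups were lower, with 12.77 to 13.36 for ctrl, 12.69 to 13.18 for ch- and 12.76 to 13.31 for ch+ cells. These genes are also induced by inflammation. Between the lines, 4 of 9 were lower in late HL60 than in late ML1 cells, with *Ccl2* (-2.59, SE 0.40) the largest, beside 4.09% of all tested genes called.

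**Figure D3:**
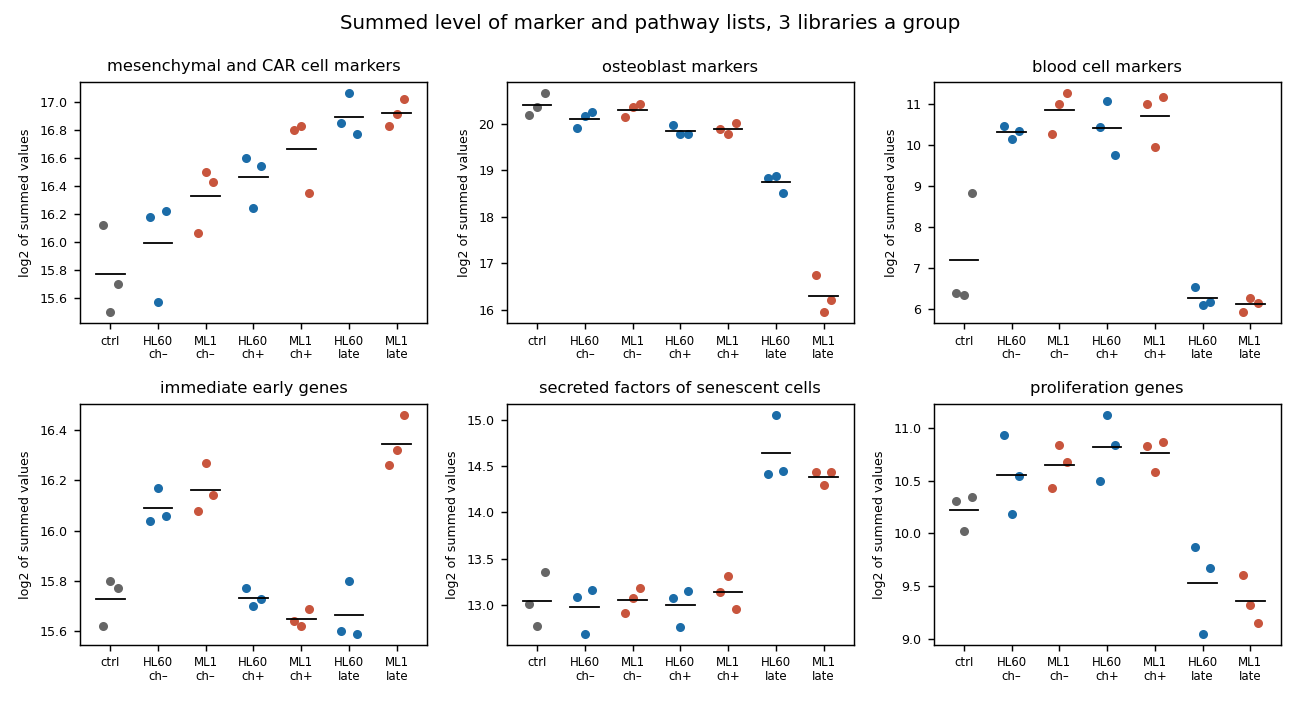
Log2 of the summed linear values of 6 gene lists (vertical axis, scaled to each panel) in each library (points, HL60 blue, ML1 red, ctrl gray) with group means (black lines). Blood cell markers are high in both early groups, osteoblast markers fall to 15.96 in late ML1, and the secreted factors lie above 14 in the late libraries.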

How the data were processed

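The deposited table holds regularized log2 values for 26852 genes in 21 libraries. Per the submitters' processing notes the authors used STAR 2.5.1b on mm10, RSEM 1.2.29 and DESeq2 1.10.1. The study's methods name log10 for the regularization. The highest value, 22.44, would be an impossible read number on that scale, so the values were read as log2. The study describes more ctrl samples than the 3 used here. Whole reads could not be recovered, and no count-based test was run. The study's methods give a typical sequencing yield, but the depth of each library is unknown from these values. Symbols were found for 26686 identifiers, and locations are those of GENCODE vM21 (GRCm38). The labels give 2 ng of RNA for each library, and the study's methods another amount. The labelled extraction text speaks of sorted endothelial cells, whereas the tissue label gives Nes low mesenchymal cells. *Cdkn1a* and *Cdkn1c* overlap genes of the opposite strand, which were not analysed here.

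Genes with a mean of at least 3.32 were fitted with limma 3.58.1 under R 4.3.3, using a trend of the variance on the mean. Tests were two-sided, and p-values were adjusted by Benjamini-Hochberg over 12976 genes. A model of 4 groups pooled the lines, and a model of 7 groups kept them apart. Fold changes are the first group minus the second. All members are named. Of each other list, at most 4 called genes with the largest change in a comparison are named, with *Trp53*, *Nes*, *Ptprc* and *Pecam1*, and the 3 genes most like a member by Pearson's r. *Cxcl12*, *Lepr* and the leading gene of a summed list are named in addition, chosen after their values were seen. The values of 1 called gene that this rule would name are not reported here. The members and lists were chosen with earlier results of these data known. Alternatives were other filters, scalings, variance settings and weights, fits of the compared groups alone, averaged lines, a threshold of 0.05 and each library left out. Leaving out the late ML1 libraries was chosen after seeing the data. Figures were drawn with matplotlib 3.10.9.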

Additional observations from a re-analysis of the deposited data

Results flagged for a closer look

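In 27 groups of 6 libraries (9 members in 3 groups), 4 had 1 library farther from the rest than Dixon's 95% critical value allows, and chance gives about 1 in 20. *Cdkn1a* was 12.45 in ML1 ch- replicate 543. *Gdf15* was 7.38 in HL60 ch- replicate 527. *Trp53inp1* was 8.90 in late HL60 replicate 398. *Cdkn2a* was -2.3 in ML1 ch+ replicate 538, at the floor of the table.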

How the results depend on the processing

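Results were recomputed under up to 12 alternatives and with each of 21 libraries left out. Averaging the lines applies only to pooled results, leaving out the late ML1 libraries not to comparisons that need them, and the filter at a mean of 5 not to genes below it. A filter at a mean of 5 and robust variances moved no count of called members by over 1.5 times. Rescaling all libraries to a common total, their mean, gave 8 called members in pooled late against ctrl (2 as reported), 7 in late against ch+ (2), 0 in ch+ against ch- (1), 4 each in HL60 late against ctrl (0) and late against ch+ (1), 8 and 6 in the same ML1 comparisons (1 each) and 1 between the late lines (0). In late against ctrl, the middle value over the tested genes rose from 0.02 to 0.71, the genes called from 2795 to 8302 and the share of these that were higher from 47.3% to 93.8%, while 5 of 8 members stayed above that median. It reversed late against ctrl for *Cdkn1a* (0.38), *Mdm2* (0.49) and *Ccng1* (0.52), late against ch+ for *Ccng1* (0.32) and *Rb1* (0.016), and ML1 late against ch+ for *Cdkn1a* (0.31). The cause was not tested. Without the filter, 1 member was called in pooled late against ctrl, 1 in late against ch+ and 0 in HL60 late against ch+. Without the trend, late against ctrl had 1 and HL60 late against ch+ 0. At a threshold of 0.05 they had 1 and 0. Without the late ML1 libraries, an alternative chosen after seeing the data, pooled late against ctrl, late against ch+ and HL60 late against ch+ had 0 each. In ML1 late against ctrl, quantile normalization and centring on the median gave 2, sample weights 3 and a fit of only the groups compared 2. That fit gave 2 in ML1 late against ch+ and 1 between the late lines, where sample weights also gave 1. With single libraries left out, the members called ran from 1 to 3 in pooled late against ctrl and late against ch+, from 1 to 2 in ML1 late against ctrl and from 0 to 2 in ML1 late against ch+. They ran from 0 to 1 in pooled ch- against ctrl and ch+ against ch-, in HL60 late against ctrl, ch- against ctrl, ch+ against ch- and late against ch+, in ML1 ch- against ctrl and between the late lines, and stayed at 0 in the remaining 6. Tests on counts were not run, since whole reads could not be recovered. No paired analysis was run, although ch+ and ch- cells came from the same marrow. Each replicate number belongs to 1 library, and the labels do not say which libraries belong together. The unpaired fit of ch+ against ch- gave -0.42 for *Phlda3* (limma adjusted p = 0.501). A pairing, which was not fitted, could change this and the other values of that comparison. The depth of each library is unknown from these values, so for *Cdkn2a* no limit can be given.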
